A study of Mus musculus and Homo sapiens with 34 samples.

Results

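The genes described here encode the HNF4 nuclear receptors, Hnf4a and Hnf4g in mouse and HNF4A and HNF4G in human. They were taken by symbol from the gene tables, 2 of the 36138 symbols that any of the 7 tables lists, by a rule that uses no measured value, although earlier results of these data were known when they were chosen. Their RNA was followed in 34 RNA-seq libraries that form 17 groups of 2 replicates, from lung adenocarcinoma cultures in which Hnf4a was deleted, HNF4A was raised, or an inhibitor was given. All mouse cultures carry, among other alleles, p53frt and Rosa-FSF-CreERT2, which give a Flp-deleted p53 and a Flp-activated, tamoxifen-dependent Cre. The 3154 organoids carry Hnf4aflox as well, and 4-hydroxytamoxifen (4OHT) or its solvent ethanol was given to them. In a first 3154 experiment the labels give 4OHT for 2 days and harvest 2 weeks later; they write the dose as 2 mM, a unit that could not be checked here. In a second, 3154 organoids received ethanol or 4OHT, each with vehicle or with 3 nM of the small-molecule inhibitor MRTX1133. A time of 48 hours is recorded for this experiment, without a dose or duration of 4OHT. The 2 experiments are therefore not read as a time course of deletion. The 1027B organoids and the 3311 cells carry Foxa1flox and Foxa2flox, and no 4OHT is named for them. Trametinib, which inhibits MEK, was given to 1027B organoids at 10 nM and to 3311 cells at 50 nM, and 1027B organoids also received MRTX1133 at 20 nM. Each treatment lasted 48 hours. Both treatments of 1027B were compared with the same 2 vehicle libraries, while 3311 had its own. The human lines H1651 and H358 received vehicle or 20 nM trametinib for 48 hours. H1651 cells carrying a lentiviral HNF4A construct received doxycycline at 1 µg/mL or none for 7 days, and the labels give the genotype only for the cells that received it. Each mouse culture is 1 line, organoids were grown in conditioned medium and the cell lines in serum, and no source says whether replicates came from separate cultures, so the p values measure the spread between these libraries, which may be technical.

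HNF4α and HNF4γ are orphan nuclear receptors that bind the same DNA element as dimers and activate genes of lipid transport, gluconeogenesis and brush-border assembly. HNF4α is known as a regulator of hepatocyte, pancreatic, kidney and intestinal identity and HNF4γ mainly of the intestinal epithelium, where both are made. Normal alveolar epithelium makes little of either, and HNF4α is known from lung adenocarcinomas that take on gastrointestinal features, in particular invasive mucinous tumours.

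Libraries held 19692517 to 45284286 counts. The epithelial markers Nkx2-1, Epcam, Cdh1, Krt8, Krt18 and Krt19 were all 6 detected in every library, with a summed level of 3772 to 11137 CPM (counts scaled to the library total with TMM factors, within each table). The 5 fibroblast markers summed to at most 1.69 CPM in the organoids, with Col1a2 and Dcn at or under the floor of 3 counts or not listed, and Cd3e of the 4 leukocyte markers was likewise at the floor in every mouse library. In H358 the fibroblast markers summed to 32.8 and 37.2 CPM with vehicle and to 112 and 143 CPM with trametinib. The endothelial markers there went from 11.6 and 14.2 to 20.8 and 21.0 CPM and the epithelial ones from 5652 and 5469 to 3772 and 4057 CPM, and the part of these lists in the H358 results was not tested. In bulk RNA, fewer cells making a gene and less of its RNA per cell cannot be told apart. CPM values of different tables come from separate normalizations, so a level set across tables is a description only.

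Hnf4a (ENSMUSG00000017950) lies on chromosome 2 of GRCm38 at 163506808 to 163572910, plus strand, with 5 annotated transcripts and 4828 exonic bases. Hnf4g (ENSMUSG00000017688) lies on chromosome 3 at 3508030 to 3658052, plus strand, with 2 transcripts and 2630 exonic bases. The antisense gene Hnf4aos (ENSMUSG00000046840) overlaps Hnf4a at 163493807 to 163541720 on the minus strand but shares 0 exonic bases with it, as do the small RNA gene Gm25881 inside Hnf4a and Gm23237 and Gm37000 inside Hnf4g with theirs. The Hnf4aos counts ran from 1 to 17 per library where it is listed, against 1629 to 12022 for Hnf4a in the same tables, and it was under the filter in each. The human genes are HNF4A (ENSG00000101076) and HNF4G (ENSG00000164749). In the 1027B table Hnf4g was not analysed here.

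Hnf4a RNA was abundant in every mouse culture with intact alleles. In vehicle-treated 1027B organoids it stood at 446 and 471 CPM, and in vehicle-treated 3311 cells at 374 and 479 CPM. In ethanol-treated 3154 organoids it stood at 315 and 427 CPM in the 2-week experiment and at 221 and 230 CPM in the 48-hour one. The ranges of 1027B and 3311, and of 3311 and 3154 at 2 weeks, overlapped, while 3154 at 48 hours lay under all of them. Human H1651 cells held less, with 47.1 and 35.9 CPM of HNF4A without doxycycline and 58.3 and 38.2 CPM with vehicle in the trametinib experiment. H358 had 0 HNF4A counts in each of its 4 libraries, and the floor of 3 counts puts the upper limit at 0.0645 CPM in the deepest library and at 0.118 CPM in the shallowest. These limits cover counting error only.

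**Figure D1:**
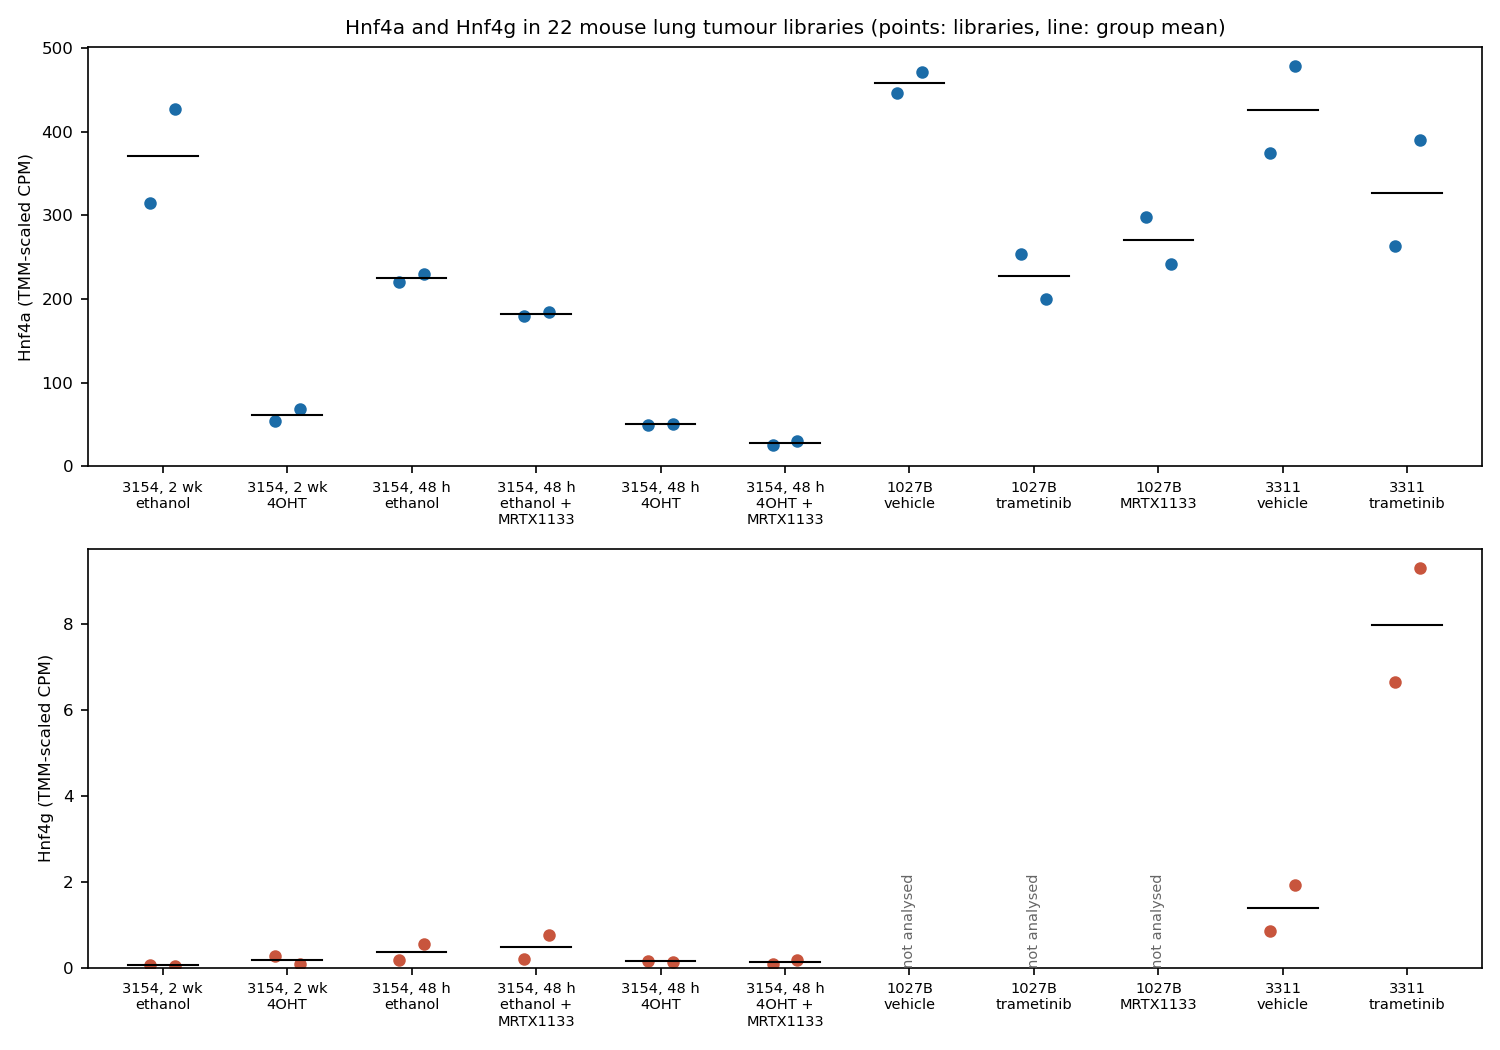
Hnf4a in the 22 mouse libraries (top) and Hnf4g in the 16 of 3154 and 3311 (bottom), in TMM-scaled CPM on linear axes that differ between the panels; points are libraries and lines are group means of 2. Hnf4a runs from 25.3 to 479 CPM and is lowest in the 4OHT groups, while Hnf4g, not analysed in 1027B, stays under 2 CPM in the 3154 and 3311 libraries except in 3311 cells given trametinib, at 6.63 and 9.28 CPM.

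Hnf4g was the lower of the pair in 3154 and 3311, the mouse cultures where it was analysed. In 3154 it gave 1 to 8 counts per library at 2 weeks and 2 to 19 counts at 48 hours, at most 0.764 CPM, which is near the floor of 3 counts. In vehicle-treated 3311 cells it gave 23 and 48 counts, or 0.855 and 1.91 CPM. Per kilobase of exon, the level of Hnf4a in those cells was 88.4 ± 15.3 CPM (SD, n = 2) and that of Hnf4g 0.526 ± 0.284 CPM. Hnf4g thus made up 0.573% ± 0.219 of the summed per-kilobase level of the pair in vehicle-treated 3311 cells, 0.287% ± 0.208 in 3154 at 48 hours in ethanol with vehicle, and 0.0289% ± 0.0135 in 3154 at 2 weeks in ethanol, the last from 2 and 1 counts of Hnf4g. The human lines held a different ratio on the CPM scale, which does not account for gene length. H1651 held 42.4 and 32.6 CPM of HNF4G without doxycycline, in the range of its HNF4A. H358, with 0 counts of HNF4A, held 9.06 and 8.66 CPM of HNF4G from 350 and 290 counts.

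Deletion was checked first in the targeted gene. At 2 weeks, 4OHT libraries held 53.5 and 68.0 CPM of Hnf4a where ethanol libraries held 315 and 427 CPM. Both 4OHT libraries lay under both ethanol libraries, a 6.11-fold lower mean, with a log2 change of -2.61 (SE 0.21, 95% interval -3.14 to -2.09, edgeR adjusted p = 0.00643). In the 48-hour experiment with vehicle, its level was 49.4 and 50.4 CPM after 4OHT against 221 and 230 CPM after ethanol, 4.52-fold lower (log2 change -2.18, SE 0.13, edgeR adjusted p = 0.000141). Under MRTX1133, its level was 25.3 and 29.8 CPM after 4OHT against 180 and 184 CPM after ethanol, 6.60-fold lower (log2 change -2.72, SE 0.13, edgeR adjusted p = 7.81e-05). The 2 comparisons at 48 hours have no library in common. Between 642 and 1813 Hnf4a counts remained in each 4OHT library. The counts cover the whole gene, so transcripts of a recombined allele and transcripts of cells that kept the floxed allele cannot be told apart. Of all genes tested, 5.78% were called lower at 2 weeks, 15.7% at 48 hours with vehicle and 14.5% under MRTX1133.

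Hnf4g did not pass the test in any deletion comparison. At 2 weeks its counts were 2 and 1 in ethanol and 8 and 2 in 4OHT, too few for the filter, with a ratio of 3.07 (95% counting interval 0.790 to 17.3). At 48 hours with vehicle, ethanol libraries held 0.168 and 0.545 CPM and 4OHT libraries 0.152 and 0.134 CPM, a log2 change of -1.29 with a 95% interval of -3.37 to 0.80 (edgeR adjusted p = 0.315). Under MRTX1133 they held 0.191 and 0.764 CPM and 0.0788 and 0.177 CPM (log2 change -1.82, edgeR adjusted p = 0.150). The intervals include a fall of several fold at 48 hours and a rise of several fold at 2 weeks, which these depths could not resolve. Nkx2-1, the lung lineage factor, stood at 233 ± 59.4 and 244 ± 24.5 CPM (SD, n = 2) beside the fall of Hnf4a at 2 weeks, with an edgeR adjusted p of 0.858.

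A list of 23 genes known from liver and intestine as HNF4 targets was read beside the receptors. It includes apolipoproteins and lipid-transfer genes (Apoa1, Apoa2, Apoa4, Apob, Apoc2, Apoc3, Apoh, Apom, Mttp, Fabp1, Fabp2), secreted liver proteins (Ambp, Agt, F7, F10), a metabolic enzyme (Pklr) and genes of the mucosal surface (Lgals4, Muc13, Cdhr2, Cdhr5, Mep1a, Vil1). The published core of the HNF4 element is close to the words CAAAGTCCA and CAAAGTTCA, and both were searched on both strands of the RefSeq promoter windows of GRCm38.p6, which run from 250 bases before to 50 bases after each start. Of the 23 genes 21 matched, with 24 windows, and 2 of these (8.33%) held a word, against 0.862% of all 32851 windows. CAAAGTCCA alone was in 0.475% and CAAAGTTCA alone in 0.390% of all windows. Neither was in either Hnf4a window or in the 22 windows of the partner factors named further on. The 2 promoters with a word belong to genes that lost nearly all RNA on deletion, and they are printed for that reason, 5′ to 3′ on the plus strand, with the matched bases in capitals. Muc13, which encodes a membrane mucin, is at chr16:33794239-33794538 and holds CAAAGTCCA on the opposite strand, 186 bases before the start. Apoa4, which encodes an intestinal apolipoprotein, is at chr9:46240594-46240893 and holds CAAAGTTCA on the same strand, 182 bases before the start. A match is a description of letters and was not tested as a binding site.
Muc13: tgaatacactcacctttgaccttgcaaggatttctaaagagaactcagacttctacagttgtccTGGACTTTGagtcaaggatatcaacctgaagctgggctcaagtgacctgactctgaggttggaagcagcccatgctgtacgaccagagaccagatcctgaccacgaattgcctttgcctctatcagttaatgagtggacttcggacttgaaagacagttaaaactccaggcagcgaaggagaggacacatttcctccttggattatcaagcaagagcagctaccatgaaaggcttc
Apoa4: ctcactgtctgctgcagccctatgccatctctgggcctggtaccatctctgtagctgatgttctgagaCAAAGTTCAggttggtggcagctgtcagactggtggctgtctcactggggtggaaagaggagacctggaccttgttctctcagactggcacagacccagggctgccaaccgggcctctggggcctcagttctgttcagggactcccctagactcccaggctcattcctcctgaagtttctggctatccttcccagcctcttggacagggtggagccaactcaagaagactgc

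At 2 weeks after deletion 18 of the target list's 23 genes could be tested, and 13 were called lower and 0 higher, with a median log2 change of -3.26, or -3.19 with the genes at 0 set to their bounds. Genes such as Apoa4, Fabp1, Mep1a and Pklr passed the filter on low counts through the ethanol group alone and could only fall, so this count and median describe the list and are no support for its direction; with at least 10 counts required in every library, 6 were called lower. Over all 14492 genes the median was 0.02 and 4.03% were called higher, 5.78% lower and 9.81% in either direction. Muc13 gave 1114 and 1321 counts in ethanol and 3 and 1 in 4OHT, a ratio of 661 (95% counting interval 258 to 2429). Apoa4 gave 59 and 86 counts in ethanol and 0 in both 4OHT libraries, at least 27.5-fold lower against the floor of 3 counts in each library. Fabp1, which encodes a fatty acid carrier of liver and gut, was at least 45.6-fold lower by the same rule, and Pklr, which encodes a pyruvate kinase, went from 155 and 143 counts to 0 and 1. Ambp, which encodes a secreted liver glycoprotein, fell from 34.7 ± 6.25 to 0.155 ± 0.0597 CPM (SD, n = 2; edgeR adjusted p = 0.00193). The brush-border cadherin Cdhr2 fell from 242 ± 11.5 to 25.2 ± 0.288 CPM (SD, n = 2; edgeR adjusted p = 0.00193). The gut lectin Lgals4 fell from 672 ± 2.64 to 82.5 ± 44.6 CPM (SD, n = 2; edgeR adjusted p = 0.0139). Smaller falls were called in Mttp, the lipid-transfer subunit of lipoprotein assembly, with a log2 change of -1.51, and in Vil1, the actin bundler of microvilli, with -1.49. Apoa2, Apoc2, Fabp2 and Agt were not called. The leukocyte markers moved with this comparison too: they summed to 18.4 and 44.6 CPM with ethanol against 9.91 and 13.3 CPM with 4OHT, with Cd3e at the floor. The endothelial markers summed to 5.93 and 5.08 CPM with ethanol and 2.17 and 2.51 CPM with 4OHT, with Kdr at the floor or not listed, and the part of either list in the result was not tested.

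At 48 hours with vehicle, 14 of the target genes could be tested, and 9 were called lower and 1 higher (median log2 change -1.76), against 15.7% lower, 15.3% higher and 31.0% in all among 15458 genes. Under MRTX1133 the counts were 10 lower and 1 higher of 14 (median -1.79), against 14.5% lower, 13.2% higher and 27.7% in all. With at least 10 counts in every library, 5 were called lower in each and 0 higher. Here too genes such as Mep1a and Pklr passed the filter through the ethanol groups alone and could only fall, so these counts and medians describe the list and are no support for its direction. Mep1a, which encodes an intestinal metalloprotease, had 69 counts in each ethanol library and 0 in both 4OHT libraries, at least 23.4-fold lower. Muc13 fell from 56.4 ± 37.2 to 0.225 ± 0.00301 CPM (SD, n = 2; edgeR adjusted p = 0.000545). Cdhr2 fell from 298 ± 24.0 to 112 ± 6.25 CPM with vehicle and from 244 ± 7.45 to 48.6 ± 10.4 CPM under MRTX1133 (edgeR adjusted p = 0.000971 and 0.000195). Agt, which encodes angiotensinogen, was the gene called higher, with 2 and 1 counts in ethanol and 18 and 44 in 4OHT, a ratio of 20.2 (95% counting interval 6.59 to 100.5), and from 0.176 ± 0.0216 to 4.33 ± 0.00456 CPM under MRTX1133 (edgeR adjusted p = 0.00106). It passed the filter through the 4OHT groups alone and could only rise, so both calls are a description. The call in Agt with vehicle rests on few counts. Some marker sums moved too, in CPM. With vehicle, fibroblast markers (all but Col1a1 at the floor) went from 0.337 and 0.168 with ethanol to 0.493 and 0.447 with 4OHT. Leukocyte markers went from 5.60 and 5.45 to 5.08 and 5.36. Under MRTX1133, fibroblast markers went from 0.115 and 0.121 to 0.473 and 0.426. Epithelial ones went from 7731 and 8016 to 7659 and 7155, and hepatocyte or enterocyte ones from 1.15 and 1.09 to 0.355 and 0.319. Their part was not tested.

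**Figure D2:**
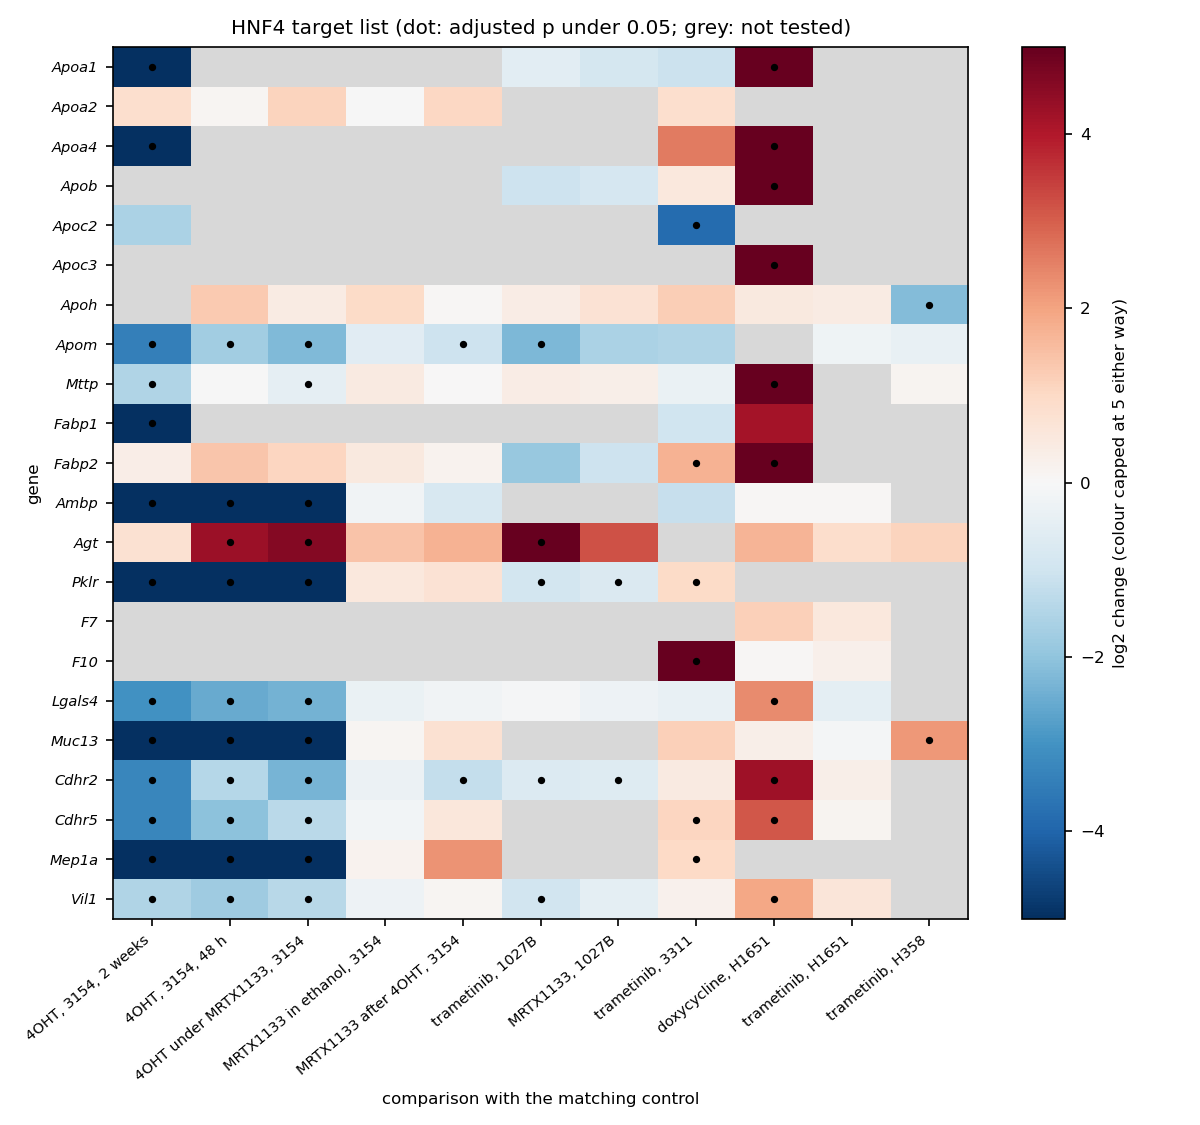
Log2 change of 22 of the 23 genes of the HNF4 target list in 11 comparisons with the matching control; colour is capped at 5 in either direction, dots mark genes past the threshold and grey cells were not tested. Blue dominates the 3 deletion columns, where 13, 9 and 10 genes were called lower, and red the doxycycline column, where 11 were called higher; these counts are over the whole list.

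A second list held 20 transcription factors and cofactors that act beside HNF4 in liver and gut, among them the pioneer factors of the Foxa family, Gata4 and Gata6, the nuclear receptors Nr5a2, Nr2f1, Nr2f2, Nr2f6 and Nr0b2, the gut factors Cdx1 and Cdx2, and the coactivator Ppargc1a. At 2 weeks 3 of 15 tested genes were called lower and 0 higher (median log2 change -0.19). Nr5a2, a liver and gut nuclear receptor, fell from 2.20 ± 0.893 to 0.457 ± 0.0428 CPM (SD, n = 2; edgeR adjusted p = 0.0374), Foxa3 from 15.3 ± 2.79 to 6.33 ± 0.543 CPM (edgeR adjusted p = 0.0274) and Cebpb from 38.8 ± 1.10 to 23.5 ± 0.319 CPM (edgeR adjusted p = 0.0338). No partner was called lower when either 4OHT library was left out. At 48 hours with vehicle, Nr5a2 and Cebpb were again called lower, with Gata4, and Foxa2 and Foxa1 were called higher, 5 of 14 in all, near the 31.0% of all genes called there. Foxa2 rose from 67.2 ± 5.14 to 108 ± 1.45 CPM with vehicle (edgeR adjusted p = 0.00426) and from 94.5 ± 1.22 to 126 ± 1.82 CPM under MRTX1133 (edgeR adjusted p = 0.0317). Without replicate 2 of 4OHT with vehicle, 0 partners were called in either direction there. Under MRTX1133, 7 of 14 were called lower, with Cdx2 at 50.0 ± 14.4 and 23.0 ± 0.0699 CPM (SD, n = 2; edgeR adjusted p = 0.0358), and 1 to 3 when any 1 of the 4 libraries was left out, which also removed the call in Foxa2. Of the 10 genes of a list of ERK pathway outputs, 2 were called higher at 2 weeks, 2 higher and 2 lower at 48 hours with vehicle, and 1 higher and 2 lower under MRTX1133, and these counts ran from 0 to 3 when single libraries were left out. Over all genes 9.81%, 31.0% and 27.7% were called in these comparisons.

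MRTX1133 in 3154 was read with and without 4OHT. With ethanol, Hnf4a stood at 221 and 230 CPM with vehicle and at 180 and 184 CPM with MRTX1133. The groups did not overlap, but the log2 change of -0.31 (95% interval -0.59 to -0.03) did not pass the threshold (edgeR adjusted p = 0.378, unadjusted p = 0.0352), where 0.0323% of genes were called lower, 0.317% higher and 0.349% in all. After 4OHT, Hnf4a stood at 49.4 and 50.4 CPM with vehicle and at 25.3 and 29.8 CPM with MRTX1133, 1.81-fold lower (log2 change -0.86, 95% interval -1.15 to -0.57, edgeR adjusted p = 0.0185), where 2.54% of genes were called lower, 2.10% higher and 4.64% in all. That call was lost when any of the 4 libraries was left out: the log2 change was -0.87 and -0.84 without replicate 1 and 2 of the vehicle group (adjusted p 0.217 and 0.149) and -0.74 and -0.98 without replicate 1 and 2 of the MRTX1133 group (adjusted p 0.234 and 0.0812). The difference between the 2 responses was tested as an interaction, with a log2 value of -0.55 (95% interval -0.95 to -0.14) that did not pass (edgeR adjusted p = 0.572, unadjusted p = 0.0140). By edgeR the interaction called 0 genes (0%) of 15458, with 1150 at an unadjusted p under 0.05, and by DESeq2 36. Hnf4g stood at 0.191 and 0.764 CPM with MRTX1133 in ethanol against 0.168 and 0.545 CPM with vehicle, and its groups overlapped (log2 change 0.40, edgeR adjusted p = 0.890). After 4OHT its log2 change was -0.13 (edgeR adjusted p = 0.960).

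Of the 14 tested target genes, MRTX1133 called 0 in ethanol by edgeR, and by DESeq2 also 0, with a median log2 change of 0.05. After 4OHT, Cdhr2 fell from 112 ± 6.25 to 48.6 ± 10.4 CPM (SD, n = 2; edgeR adjusted p = 0.0179) and Apom, which carries sphingolipids in plasma, from 8.91 ± 1.23 to 4.38 ± 0.784 CPM (edgeR adjusted p = 0.0386), 2 of 14 with a median of 0.14, where 4.64% of all genes were called. Of the partners 1 of 14 was called, Nr2f2, a receptor that competes for HNF4 elements, which rose from 11.0 ± 0.777 to 21.3 ± 2.16 CPM (edgeR adjusted p = 0.0328), a count of 1 that lies near the share over all genes. Of 10 ERK outputs 0 were called in ethanol, with 8 of 10 below 0, and Spry4, Etv4 and Spry2 were called lower after 4OHT. When any 1 of the 4 libraries was left out, each of these 3 counts after 4OHT was 0. With only these 2 groups in the fit, 2 targets were called higher and 2 lower, 3 partners higher and 3 lower, and 1 ERK output higher and 8 lower.

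In 1027B organoids both inhibitors lowered Hnf4a. It stood at 446 and 471 CPM with vehicle, at 254 and 200 CPM with trametinib and at 298 and 242 CPM with MRTX1133. Every inhibitor library lay under both vehicle libraries. With trametinib it was 2.02-fold lower (log2 change -1.01, SE 0.15, 95% interval -1.38 to -0.65, edgeR adjusted p = 0.00535), where 13.2% of 14555 genes were called lower, 13.5% higher and 26.7% in all, or 3880 genes, which became 6540 with the replicate number as a block. With MRTX1133 it was 1.70-fold lower (log2 change -0.76, SE 0.15, 95% interval -1.13 to -0.40, edgeR adjusted p = 0.0375), where 3.26% were called lower, 3.01% higher and 6.27% in all, or 913 genes, which became 3515 with the block. Both calls of Hnf4a held with the block. The MRTX1133 call was lost without any 1 of the 4 libraries compared: the log2 change was -0.80 and -0.70 without replicate 1 and 2 of vehicle (adjusted p 0.109 and 0.142) and -0.92 and -0.61 without replicate 1 and 2 of MRTX1133 (adjusted p 0.0841 and 0.166). Between the inhibitors, at 20 nM MRTX1133 and 10 nM trametinib, Hnf4a overlapped and the log2 difference of 0.25 (95% interval -0.11 to 0.61) did not pass (edgeR adjusted p = 0.477). That comparison called 0 genes (0%) by edgeR with 2357 at an unadjusted p under 0.05, 712 by DESeq2, and 2050 with the replicate block. Nkx2-1 stood at 314 ± 3.07 CPM with vehicle and 422 ± 12.9 CPM with trametinib (SD, n = 2; edgeR adjusted p = 0.0178). The lung epithelial markers summed to 9482 and 9343 CPM with vehicle, 7831 and 8691 CPM with trametinib and 8501 and 8376 CPM with MRTX1133. The leukocyte markers, with Cd3e at the floor, summed to 8.28 and 7.80 CPM with vehicle, 7.17 and 6.44 CPM with trametinib and 5.50 and 5.33 CPM with MRTX1133. The fibroblast markers, with Col1a2, Pdgfrb and Dcn at the floor, summed to 0.533 and 0.921 CPM with vehicle and to 1.03 to 1.69 CPM with either inhibitor. In each of these lists the inhibitor libraries did not overlap the vehicle libraries, and the part of these lists in the changes was not tested.

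Of the HNF4 targets in 1027B, 4 of 11 tested were called lower and 1 higher with trametinib (median log2 change -0.70), beside 26.7% of all genes called in either direction. Cdhr2 fell from 325 ± 17.2 to 200 ± 23.0 CPM (SD, n = 2; edgeR adjusted p = 0.00672), Pklr from 54.1 ± 4.04 to 29.0 ± 3.81 CPM (edgeR adjusted p = 0.00618) and Vil1 from 90.2 ± 11.0 to 46.4 ± 6.33 CPM (edgeR adjusted p = 0.0109). Agt rose from 0.199 ± 0.129 to 11.8 ± 10.4 CPM, with 6 and 2 counts against 430 and 94 (edgeR adjusted p = 0.0106). Its vehicle libraries lay under the filter on low counts, so it could only rise and this call is a description. With MRTX1133, Cdhr2 fell to 209 ± 6.32 CPM (edgeR adjusted p = 0.0272) and Pklr to 32.4 ± 3.06 CPM (edgeR adjusted p = 0.0340), 2 of 11 with a median of -0.64, beside 6.27% of all genes called, and with the replicate block 5 were called lower and 1 higher, while 0 were called without any 1 of the 4 libraries. Lgals4, a target that fell on deletion, was not called with either inhibitor.

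Among the partners in 1027B, trametinib called 4 of 13 higher and 4 lower, beside 13.5% and 13.2% of all genes. Nr2f2 rose from 30.0 ± 5.37 to 84.5 ± 12.8 CPM (SD, n = 2; edgeR adjusted p = 0.00331) and Cebpb, an acute-phase factor, from 38.6 ± 6.96 to 87.5 ± 9.97 CPM (edgeR adjusted p = 0.00337). Hhex, a foregut homeobox factor, fell from 84.8 ± 5.58 to 17.1 ± 0.177 CPM (edgeR adjusted p = 0.000434) and Onecut2 from 186 ± 15.4 to 93.2 ± 2.73 CPM (edgeR adjusted p = 0.00204). Without replicate 2 of vehicle, or without replicate 1 of trametinib, 2 were called in each direction. MRTX1133 called Nr2f2 higher (60.3 ± 10.9 CPM) and Hhex (28.1 ± 3.39 CPM) and Onecut2 (116 ± 10.5 CPM) lower, 3 of 13. Over all genes it called 3.01% higher and 3.26% lower. With the replicate block 4 partners were called in each direction. Without any 1 of the 4 libraries, 0 were called higher and 1 lower. Of the ERK outputs, trametinib called 8 of 10 lower (median log2 change -1.88), and 10 with the replicate block. MRTX1133 called 5 of 10 lower (median -0.95), beside 3.26% of all genes, and 8 with the replicate block. With each inhibitor all 10 lay below 0. Fewer were called with MRTX1133 when any 1 of the 4 libraries was left out.

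In 3311 cells trametinib raised the paralog. Hnf4g stood at 0.855 and 1.91 CPM with vehicle and at 6.63 and 9.28 CPM with trametinib, from 23 and 48 counts to 185 and 244. Both trametinib libraries lay above both vehicle libraries, and the fitted level was 5.76-fold higher (log2 change 2.53, SE 0.43, 95% interval 1.50 to 3.55, edgeR adjusted p = 0.00535), where 19.4% of 15224 genes were called higher, 19.6% lower and 39.0% in all. The call held without any 1 of the 4 libraries, with a log2 change of 2.05 to 3.21. Hnf4a in the same libraries stood at 374 and 479 CPM with vehicle and at 263 and 390 CPM with trametinib. Its groups overlapped, and the log2 change of -0.39 (95% interval -0.91 to 0.14) did not pass (edgeR adjusted p = 0.208). Without replicate 2 of trametinib it was -0.70 and passed (edgeR adjusted p = 0.0299). Per kilobase of exon, the level of Hnf4g went from 0.526 ± 0.284 to 3.03 ± 0.713 CPM, and its share of the summed per-kilobase level of the pair from 0.573% ± 0.219 to 4.30% ± 0.168 (SD, n = 2). Hnf4a thus remained the larger part of the pair in both groups. The leukocyte markers summed to 9.55 and 15.7 CPM with vehicle and 21.8 and 28.6 CPM with trametinib, with Cd3e and Ptprc at the floor, and the fibroblast markers to 21.5 and 26.2 CPM with vehicle and 17.5 and 17.3 CPM with trametinib, with Dcn and Col1a2 at the floor. The hepatocyte and enterocyte markers, nearly all Alb with Sis at the floor, summed to 859 and 1040 CPM with vehicle and 304 and 709 CPM with trametinib. The part of these lists in the changes was not tested.

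Among target genes in 3311, 5 of 20 tested were called higher and 1 lower (median log2 change 0.50), against 19.4% higher and 19.6% lower over all genes, a share near or under the background. F10 passed the filter on low counts through the trametinib group alone and could only rise. Apoc2 passed it through vehicle alone and could only fall, so these values are a description. With at least 10 counts in every library 0 targets were called lower. The brush-border protein Cdhr5 rose from 236 ± 55.6 to 494 ± 163 CPM (SD, n = 2; edgeR adjusted p = 0.0184), Mep1a from 12.0 ± 3.96 to 23.8 ± 7.08 CPM (edgeR adjusted p = 0.0380) and Pklr from 36.0 ± 12.5 to 69.7 ± 25.5 CPM (edgeR adjusted p = 0.0452). Fabp2, the intestinal fatty acid carrier, rose from 0.700 ± 0.306 to 2.34 ± 0.568 CPM (edgeR adjusted p = 0.0262), and F10, a clotting factor, went from 0 and 2 counts to 29 and 122, a ratio of 72.5 (95% counting interval 19.7 to 604). Apoc2, an activator of lipoprotein lipase, fell from 2.49 ± 0.312 to 0.168 ± 0.0854 CPM (SD, n = 2; edgeR adjusted p = 0.00235). These counts depended on single libraries: 0 targets were called higher without replicate 1 of vehicle, 9 without replicate 1 of trametinib and 2 without replicate 2, and 5 were called lower without replicate 2 of trametinib.

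The partners of HNF4 in 3311 were called in both directions, 6 of 18 higher and 5 lower, beside 19.4% and 19.6% of all genes. Ppargc1a, a coactivator that HNF4α recruits, rose from 4.98 ± 1.41 to 82.8 ± 19.2 CPM (SD, n = 2; edgeR adjusted p = 0.000349), Nr5a2 from 20.8 ± 2.89 to 66.7 ± 9.39 CPM (edgeR adjusted p = 0.00101) and Gata6 from 73.7 ± 3.21 to 161 ± 2.18 CPM (edgeR adjusted p = 0.00124). Onecut2 fell from 448 ± 62.0 to 65.8 ± 14.4 CPM (edgeR adjusted p = 0.000425) and Cebpb from 30.7 ± 1.43 to 13.2 ± 2.80 CPM (edgeR adjusted p = 0.00479). Hhex and Onecut2 were called lower in both 1027B and 3311, 2 of the 4 and 2 of the 5, and 0 partners were called higher in both. Without replicate 1 of trametinib 3 were called lower. Of the ERK outputs 9 of 10 were called lower and all 10 lay below 0 (median log2 change -1.85), beside 19.6% of all genes called lower.

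**Figure D3:**
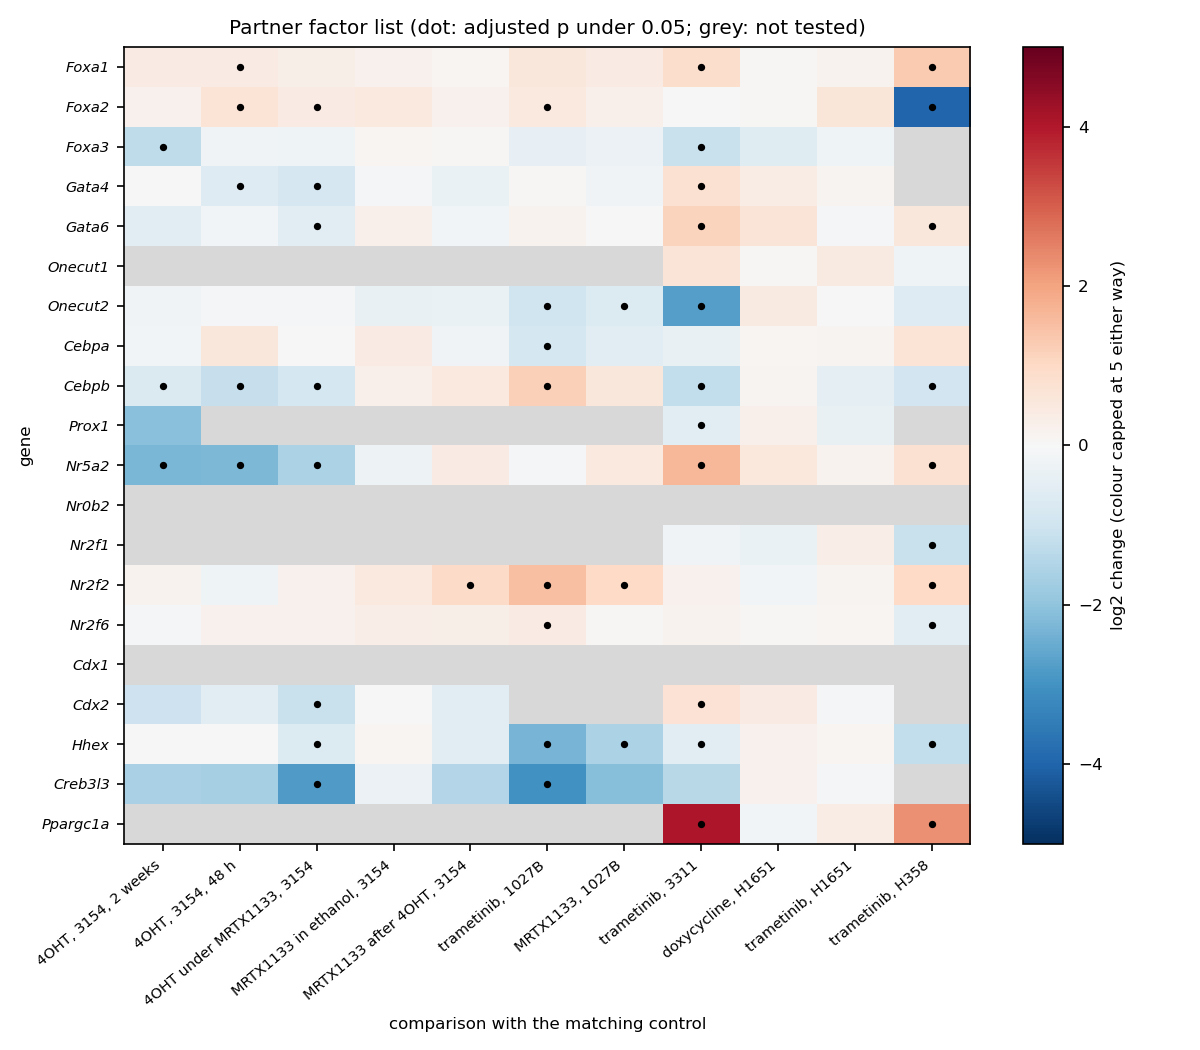
Log2 change of the 20 partner factors in 11 comparisons with the matching control; colour is capped at 5 in either direction, dots mark genes past the threshold and grey cells were not tested. Calls of both signs fill the trametinib columns of 1027B, 3311 and H358, and the doxycycline column and the trametinib column of H1651 have 0 calls.

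In H1651 the doxycycline construct raised HNF4A, and HNF4G did not pass the test. HNF4A stood at 47.1 and 35.9 CPM without doxycycline and at 94.4 and 96.8 CPM with it, 2.30-fold higher (log2 change 1.20, SE 0.13, 95% interval 0.91 to 1.50, edgeR adjusted p = 0.00979). Among 17351 genes 1.04% were called higher, 0.386% lower and 1.42% in all. Reads of the construct and of the endogenous gene cannot be told apart in these counts. HNF4G stood at 42.4 and 32.6 CPM without doxycycline and at 43.9 and 38.7 CPM with it. Its groups overlapped, with a log2 change of 0.14 (95% interval -0.18 to 0.46, edgeR adjusted p = 0.747).

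Of the human orthologs of the targets 18 were tested with doxycycline, and 11 were called higher and 0 lower, and all 18 log2 changes were above 0, with a median of 3.64 against -0.0037 over all genes. Genes such as FABP2 and APOC3 passed the filter through the doxycycline group alone and could only rise, so these values are a description; with at least 10 counts in every library, 4 were called higher. APOA1, the main protein of high-density lipoprotein, rose from 0.138 ± 0.0205 to 24.4 ± 4.18 CPM (SD, n = 2; edgeR adjusted p = 0.000416) and MTTP from 0.399 ± 0.0777 to 17.9 ± 2.62 CPM (edgeR adjusted p = 0.000416). FABP2 went from 0 and 1 counts to 87 and 111, a ratio of 208 (95% counting interval 36.8 to 8244), and APOC3 from 0 and 1 to 105 and 88. Of the 11, 7 (63.6%) were orthologs of genes called lower after Hnf4a deletion at 2 weeks, which is 53.8% of those 13: APOA1, APOA4, MTTP, LGALS4, CDHR2, CDHR5 and VIL1. At 2 weeks 13 of the 18 tested list genes (72.2%) were called lower, beside 5.78% of all genes. APOB and APOC3, among the 11, were not tested there. Apoa4 passed the filter at 2 weeks through the ethanol group alone, so this overlap is a description. Beside these changes the fibroblast markers summed to 109 and 131 CPM without doxycycline and 76.7 and 94.1 CPM with it, and the epithelial markers to 4461 and 4451 CPM without and 5747 and 6229 CPM with it, and their part in the result was not tested. MUC13, whose mouse ortholog was nearly lost on deletion, was not called, at 572 ± 39.7 CPM without and 704 ± 56.2 CPM with doxycycline (SD, n = 2). The partners had 0 of 18 called by edgeR and 0 by DESeq2, with a median of 0.10 and 14 of 18 above 0, and with the replicate block 3 were called higher and 2 lower. DUSP6 and CCND1 of the ERK outputs were called higher, 2 of 10, and 0 without either library that lacked doxycycline and 1 without either that received it.

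Trametinib in H1651 called no member. HNF4A stood at 58.3 and 38.2 CPM with vehicle and at 58.9 and 33.3 CPM with trametinib (log2 change -0.07, 95% interval -0.91 to 0.78, edgeR adjusted p = 0.999). HNF4G stood at 40.4 and 27.9 CPM with vehicle and at 41.3 and 31.4 CPM with trametinib (log2 change 0.09, 95% interval -0.49 to 0.67, edgeR adjusted p = 0.999). In both groups replicate 1 was the higher library for both genes. No gene of 18277 was called (0%) by edgeR, with 597 at an unadjusted p under 0.05, 47 by DESeq2 and 1881 with the replicate block. All 10 ERK outputs lay below 0, with a median log2 change of -1.83, and 0 were called by edgeR at the threshold, 5 by DESeq2 10 with the replicate block and 8 without replicate 1 of vehicle. Of the targets 0 of 11 and of the partners 0 of 18 were called, by edgeR and by DESeq2, and with the replicate block 4 targets and 4 partners were called higher and 1 partner lower.

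**Figure D4:**
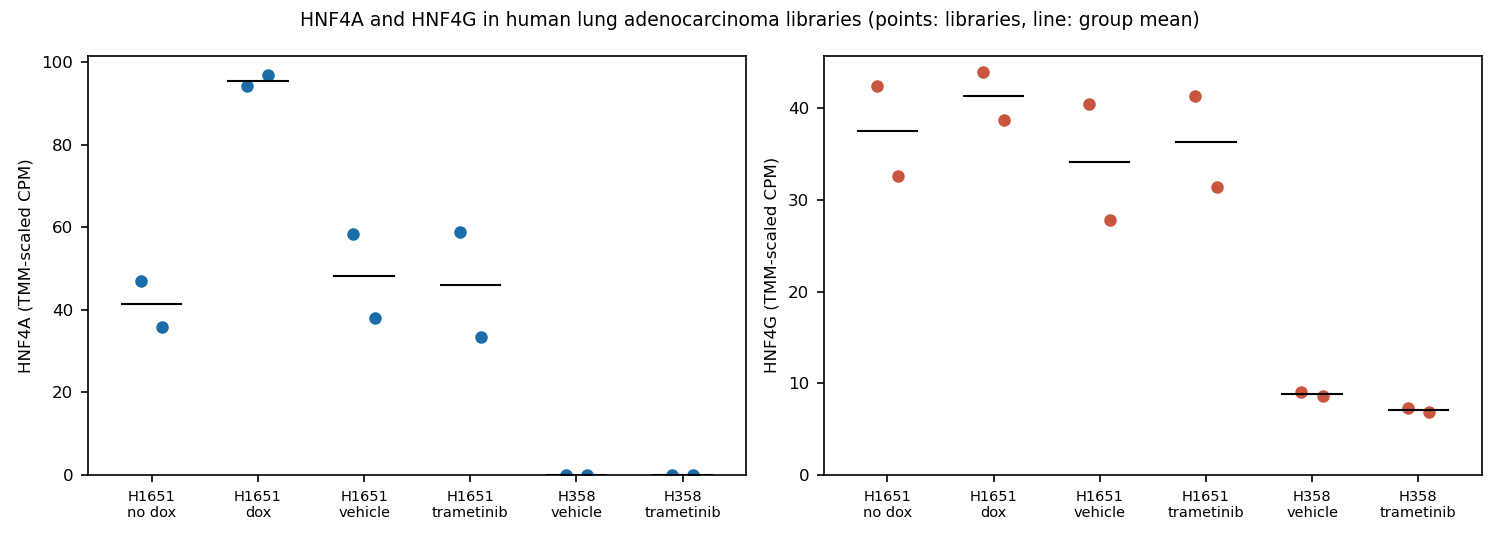
HNF4A (left) and HNF4G (right) in the 12 human libraries, in TMM-scaled CPM on linear axes that differ between the panels; points are libraries and lines are group means of 2. HNF4A rises with doxycycline to 94.4 and 96.8 CPM and is at 0 in H358, while HNF4G is present in both lines, between 6.87 and 43.9 CPM.

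In H358 HNF4G was the only HNF4 RNA counted. It stood at 9.06 and 8.66 CPM with vehicle and at 7.31 and 6.87 CPM with trametinib. Both trametinib libraries lay under both vehicle libraries, but the log2 change of -0.32 (SE 0.17, 95% interval -0.70 to 0.06) did not pass (edgeR adjusted p = 0.145), where 23.2% of 18972 genes were called lower, 23.5% higher and 46.8% in all. Most HNF4 targets were too low to test, and of the 5 tested MUC13 was called higher, from 0.124 ± 0.00712 to 0.551 ± 0.224 CPM, and APOH, a phospholipid-binding plasma protein, lower, from 0.386 ± 0.0397 to 0.0822 ± 0.00526 CPM (SD, n = 2). Neither was called by DESeq2. MUC13 was not called without replicate 1 of trametinib, and APOH neither without it nor without replicate 1 of vehicle. Of the 20 partners 13 could be tested, and 5 of these were called higher and 5 lower, beside 46.8% of all genes called in either direction. FOXA2 fell from 82.8 ± 0.273 to 5.41 ± 2.06 CPM (SD, n = 2; edgeR adjusted p = 1.56e-05), while FOXA1 rose from 45.8 ± 10.0 to 113 ± 0.732 CPM (edgeR adjusted p = 0.000304) and PPARGC1A from 3.20 ± 0.346 to 15.5 ± 1.62 CPM (edgeR adjusted p = 5.81e-05). Without replicate 2 of vehicle 3 were called higher. FOXA1, GATA6, NR5A2 and PPARGC1A were called higher with trametinib in both H358 and 3311, 4 of the 5 and 4 of the 6. Over all genes 23.5% were called higher in H358 and 19.4% in 3311. All 10 ERK outputs fell (median log2 change -3.70).

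**Figure D5:**
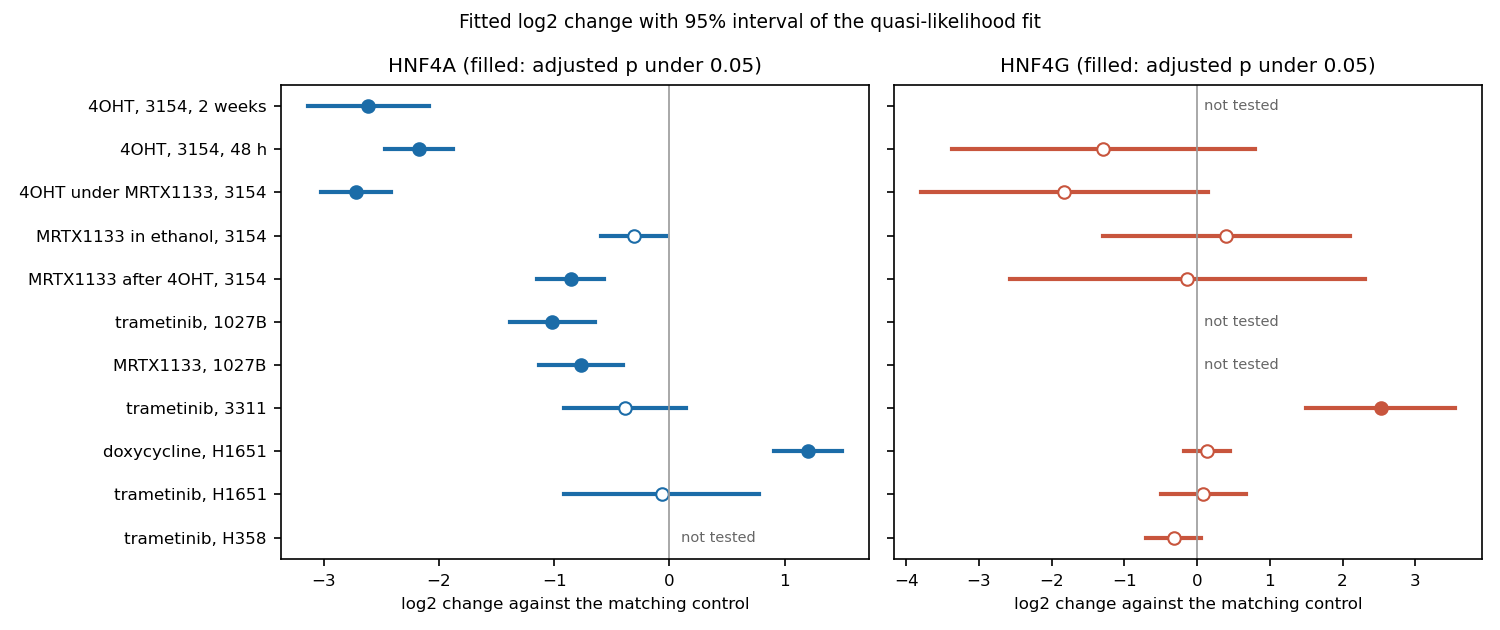
Fitted log2 change of HNF4A (left) and HNF4G (right) against the matching control, with 95% intervals of the quasi-likelihood fit on 2 libraries a group; filled points passed the threshold. HNF4A lies at -2.18 or lower in the 3 deletion comparisons and at 1.20 with doxycycline, and HNF4G passed in 1 comparison, trametinib in 3311, at 2.53.

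Genes whose RNA varied most like Hnf4a were found over the 22 mouse libraries, as Pearson r of log2 CPM after each table was centred on its mean, among 10515 other genes. The first 5 were Tm4sf20 (r = 0.974), Cyp2d26 (0.964), Rundc3b (0.963), Sec23a (0.961) and Ppp2r3a (0.960). The points share libraries and treatments, and 6 of them received 4OHT, so these values are a description. Without those 6, over 16 libraries, r was 0.926 for Tm4sf20, 0.653 for Cyp2d26, 0.730 for Rundc3b, 0.830 for Sec23a and 0.761 for Ppp2r3a, and 0 of the first 5 stayed among the first 5. Tm4sf20, a transmembrane protein of the gut, gave 417 and 1269 counts in ethanol and 0 and 1 after 4OHT at 2 weeks. In 1027B it stood at 10.1 ± 0.903 CPM with vehicle and 1.75 ± 0.297 CPM with trametinib. Cyp2d26, a cytochrome P450, stood at 112 ± 61.8 and 0.321 ± 0.129 CPM at 2 weeks. Sec23a, a coat protein of secretory vesicles, stood at 80.7 ± 4.72 and 38.2 ± 4.67 CPM. These levels are a description, since the genes were picked for their likeness over the same libraries. No such ranking was made for Hnf4g, which was not tested in all 4 mouse tables.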

How the data were processed

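Poly(A) RNA from 34 libraries was sequenced in pairs from strand-specific libraries, per the labels' protocols. The authors deposited 7 tables of raw counts per gene. The submitters' processing notes name cutadapt 3.5, STAR 2.7.6a, featureCounts 1.6.3 and builds of mouse and human; which table used which build, the strand setting and the annotation are not given in the sources used here. The columns of the 3311 table name treatment and replicate only and were assigned through the table's name. Tables list 16553 to 26245 genes, and total counts run from 19692517 to 45284286.

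Each table was fitted alone in R 4.3.3 with edgeR 4.0.16 (filterByExpr, TMM, quasi-likelihood F-test), all groups of a table sharing 1 fit. The p values were adjusted by the Benjamini-Hochberg method across every gene a table tested, and a gene was called under 0.05. Standard errors and 95% intervals come from the F statistic of that fit. Levels are TMM-scaled CPM; the floor is 3 counts in a library. With 2 libraries a group an exact permutation test cannot reach the threshold. The fits were tested on simulated data, where most changed genes were recovered and unchanged genes made up more of the calls than the threshold allows, so a call just under it is weak. Replicates of a group differed by more than counting noise, with chi-square per degree of freedom of 5.58 to 79.9. In 1027B the differences between replicates correlated between all 3 pairs of groups (r = 0.243, 0.372 and 0.414, threshold 0.1). No source names what libraries of the same number share. The main fits of all tables, 1027B included, therefore use group means without pairing, and the replicate block is an alternative.

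The members and lists were chosen with earlier results of these data known. The lists are 23 HNF4 targets, 20 partner factors and 10 ERK outputs (Dusp6, Dusp4, Spry2, Spry4, Spred1, Etv4, Etv5, Phlda1, Ccnd1, Fosl1), with markers of epithelium, fibroblasts, leukocytes, endothelium (Pecam1, Cdh5, Kdr) and of hepatocytes or enterocytes (Alb, Sis, Lct). Named genes are the members in every library and comparison, antisense genes, up to 5 called members of each list and comparison by absolute log2 change, of which a selection is printed, and the 5 genes most like Hnf4a. Some list genes that were not called, or ranked lower, were named after their values were seen. Gene positions and exon lengths come from GENCODE M21 on GRCm38, promoters from RefSeq. The alternatives tried were other scalings (RLE, upper quartile), DESeq2 1.42.0, other filters, the replicate block, only the groups compared, and leaving out each library. Some list genes, alleles and drug targets are not reported here.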

Additional observations from a re-analysis of the deposited data

Results flagged for a closer look

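Each group has 2 libraries, so no test for a single outlying library was made. A member and 4 listed genes moved in opposite directions under trametinib in different cultures, at doses that also differ (10 nM in 1027B, 50 nM in 3311, 20 nM in H358), and none of these differences was tested. Hnf4g rose in both trametinib libraries of 3311 (log2 change 2.53), and HNF4G was lower in both of H358 (-0.32, not past the threshold), a difference of 2.85. Cebpb rose in 1027B (1.18) and fell in 3311 (-1.22) and H358 (-0.95), differences of 2.40 and 2.13. Pklr fell in 1027B (-0.90) and rose in 3311 (0.96), a difference of -1.85. Foxa2 rose in 1027B (0.48) and fell in H358 (-3.97), a difference of 4.46, and Nr2f6 rose in 1027B (0.39) and fell in H358 (-0.53), a difference of 0.92.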

How the results depend on the processing

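For Hnf4a and Hnf4g (HNF4A and HNF4G), 21 changes were tested, and all 129 alternatives other than leaving out a library kept the direction and the side of the threshold: DESeq2, RLE and upper-quartile scaling, no filter or at least 10 counts in every library, the replicate block and only the groups compared. Hnf4g at 2 weeks could be tested only without the filter (log2 change 1.52, adjusted p 0.424). With the replicate block the log2 change of Hnf4a was -2.61 at 2 weeks, -1.03 with trametinib and -0.78 with MRTX1133 in 1027B, and Hnf4g in 3311 was at 2.58; the block changed no call of these genes. As in 1027B, the differences between replicates correlated above 0.1 in every table with 2 groups. There r was 0.427 in 3154 at 2 weeks, 0.126 in 3311 and 0.318 in H358. In H1651 it was 0.318 with doxycycline and 0.623 with trametinib. In 3154 at 48 hours it ran from -0.251 to 0.549. No source names what libraries of the same number share. Of 92 fits without 1 library, 73 kept direction and side. The MRTX1133 change of Hnf4a lost its call in every such fit, from -0.98 to -0.74 after 4OHT and from -0.92 to -0.61 in 1027B. In 3311 the trametinib change of Hnf4a ran from -0.70 to -0.13 and passed at -0.70. Changes that were not called crossed 0: Hnf4g with MRTX1133 in ethanol from -0.88 to 1.46 (also -0.20), after 4OHT from -0.82 to 0.30, and in the interaction from -1.60 to 0.75 (also 0.07); HNF4G with doxycycline from -0.033 to 0.34; with trametinib in H1651, HNF4A from -0.53 to 0.29 (also 0.27) and HNF4G from -0.14 to 0.38 (also -0.12). The cause was not tested.

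Counts of calls moved more. Requiring 10 counts in every library, which tests fewer genes, left 6 of 13 target genes lower at 2 weeks, 5 of 9 and 5 of 10 at 48 hours, and 4 of 11 higher with doxycycline. Calls over all genes ran from 395 to 4563 at 2 weeks (1421; DESeq2 2311, replicate block 4563), from 1668 to 5964 at 48 hours with vehicle (4795) and from 1745 to 4541 under MRTX1133 (4279). For MRTX1133 they ran from 0 to 330 in ethanol (54), from 0 to 3932 after 4OHT (717) and from 138 to 3515 in 1027B (913). For trametinib they ran from 1336 to 6540 in 1027B (3880) and from 3772 to 6356 in 3311 (5938), and with doxycycline from 188 to 3048 (247). Partner genes called lower at 2 weeks ran from 0 to 7 (3), and with the replicate block 8 targets were called higher and 3 lower in 3311. The first 5 genes like Hnf4a shared 0 with those found without centring and 1 with those by Spearman rho.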

Other observations

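Alb, the albumin gene of hepatocytes, was chosen here after its values were seen. It stood at 949 ± 128 CPM (SD, n = 2) in vehicle-treated 3311 cells and at 503 ± 284 CPM with trametinib (edgeR adjusted p = 0.0831), against 24.6 ± 22.8 CPM in vehicle-treated 1027B and, in ethanol-treated 3154, 0.609 ± 0.0286 CPM at 48 hours with vehicle and 2.97 and 17.5 CPM at 2 weeks. In 3154 under MRTX1133 it fell with 4OHT from 28 and 26 counts to 2 and 2, a ratio of 14.2 (95% counting interval 5.23 to 53.9, edgeR adjusted p = 0.0151). It was not called in the other deletion comparisons, with 14 and 15 counts against 10 and 0 at 48 hours with vehicle and 90 and 389 against 81 and 163 at 2 weeks. The enterocyte gene Sis was at or under the floor of 3 counts, or not listed, in every library. The tables were normalized separately, so levels of different cultures are a description.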
